A study of Mus musculus with 2 samples.

Results

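Dendritic cells of the retina damaged by sodium iodate (NaIO3) were the 91 cells chosen by a marker rule from the 9441 cells kept in the NaIO3 library, out of 15014 kept cells in the whole series. A cell was kept with at least 500 UMIs (unique molecular identifiers, 1 per captured transcript), at least 300 genes and at most 15% mitochondrial UMIs. A kept cell was taken as dendritic when H2-Aa, H2-Ab1 and Cd74 together made up at least 1% of its UMIs and C1qa, C1qb and C1qc together made up less than 0.3%. It also needed at least 1 UMI of Flt3, Xcr1, Clec9a, Itgae, Wdfy4 or Ccr7, and fewer than 3 UMIs of Nkg7, Xcl1 and Gzma together. These genes chose the cells, so their levels describe the choice and are not findings.

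The study profiled retinal cells of mice by 10x single-cell RNA sequencing after an injury to the retina. The NaIO3 group received 20 mg per kg of the oxidant into a vein, and the PBS group received the same volume of phosphate-buffered saline, in which the oxidant had been dissolved. Eyes were taken on day 7, and retinas of 6 mice were pooled into 1 library per group. Strain and age were not used here. Both libraries are labelled as CD11b+ microglia, while the protocol describes CD11b magnetic beads for the NaIO3 pellets alone. CD11b is the protein product of Itgam, so the beads can set the share of each cell type. With 1 library per group and cells that are not replicates, no test was possible, and every interval given is a 95% interval for counting error only.

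As background, dendritic cells take up material in tissues, load peptides onto MHC class II molecules and show them to T cells. Conventional dendritic cells depend on the growth factor receptor Flt3 and come in a type 1 lineage marked by Xcr1, Clec9a and Irf8 and a type 2 lineage that includes cells with Irf4, Mgl2 and Cd209a. Mature, migrating dendritic cells carry Ccr7, the receptor that guides them toward lymph nodes. Few such cells are found in the healthy retina, where microglia, which make the C1q proteins, are the main immune cells.

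The 91 cells were 0.964% of kept NaIO3 cells (0.777 to 1.18, exact binomial interval). The PBS library held 0 such cells among 5573, for which the exact binomial interval reaches up to 0.0662%, and 1 PBS cell reached the MHC class II limit at all. Few PBS cells reached the C1q limit either, 15 against 1743 in the NaIO3 library. The injury and the bead selection cannot be told apart in these differences. In the NaIO3 library 442 cells reached the class II limit, 131 of these were below the C1q limit and 108 of those had a marker UMI. The class II share of the 3 members nearest to the limit was 1.07%, 1.10% and 1.11%, and that of the 3 nearest cells outside it was 0.863%, 0.856% and 0.647%. The C1q share was 0.297%, 0.297% and 0.248% in the 3 members nearest to that limit, and 0.310%, 0.338% and 0.347% in the nearest cells outside. Of the members, 42 had no C1q UMI and 9 rested on 1 marker UMI.

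Of the cells that missed 1 condition, 23 lacked only a marker UMI. They were shallow, with a median of 1141 UMIs, and carried H2-Eb1 at 7224 CPM (counts of the gene per 1000000 counts of the group), against 7771 CPM in the members. Another 17 missed only the limit on Nkg7, Xcl1 and Gzma, with a median of 40924 UMIs. These 17 held 907 UMIs of Xcl1, a chemokine of natural killer and T cells, in 16 cells. Their Itgae level was 228 CPM and their Il1b level 338 CPM, and scrublet, a doublet caller, marked 0 of them.

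The members were deep cells, with a median of 13187 UMIs and 3169 genes and a range of 616 to 39368 UMIs. The comparison cells were the 1743 C1q-high cells of the same library, with C1q genes at 0.3% of UMIs or more and a median of 2853 UMIs. A further comparison used 387 other C1q-low leukocyte cells, which were below both limits on class II and C1q, had at least 3 UMIs of 6 leukocyte genes and a median of 3414 UMIs. Doublets were not removed by the rule. Scrublet marked 180 of the 9441 kept cells, 2 of the 91 members and 46 of the C1q-high cells. The C1q-high cells were mixed. Among them 311 also reached the class II limit, 485 had a UMI of the 6 marker genes with a median depth of 24652 UMIs, and 116 had 3 or more UMIs of Nkg7, Xcl1 and Gzma. Values against the 1307 C1q-high cells with none of high class II, those killer-cell UMIs or a scrublet mark are therefore given for the named ratios that they move by over 1.5 times, a choice made after seeing the data. Since these cells were left by removing those with high class II, ratios of class II genes and of genes found in the same cells are partly set by the removal. The libraries shared 24 barcodes, 23 of them kept, and 1 belonged to a member.

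The label was checked against markers of other cell types. Every one of the 16 dendritic markers was detected in the members, and their summed level, which includes genes of the rule, was 20697 CPM, against 6080.4 CPM in C1q-high cells. In further lists, type 1 markers summed to 1511 CPM, against 781 CPM in C1q-high cells and 537 CPM in other C1q-low leukocyte cells. Of the members' type 1 sum, the rule's genes Itgae, Wdfy4, Xcr1 and Clec9a gave 395, 257, 91.7 and 50.5 CPM. Type 2 markers summed to 689 CPM, against 425 and 160 CPM in those groups. Mature dendritic markers summed to 326 CPM, against 209.6 CPM in C1q-high cells but 341 CPM in the leukocyte cells. The 12 microglia markers summed to 1167 CPM in the members and 11999 CPM in C1q-high cells. They include C1qa, C1qb and C1qc, which separate the groups by rule and stood at 173, 214 and 179 CPM in the members. Sall1, which marks resident microglia, had no UMI in the members. The 10 macrophage markers summed to 132 CPM against 1238 CPM, and Mrc1, Cd163, Lyve1 and Cbr2 had 1 UMI each in the members. Of 8 monocyte markers, with 728 CPM in the members and 592 CPM in C1q-high cells, Chil3, F13a1 and Vcan had no UMI. Plac8, also on the dendritic list, gave 560 CPM of the members' sum and Ccr2 gave 110 CPM. Natural killer and T cell markers stood at 11.8 CPM in the members, with 5 of 10 at 0, 3 of which the rule limits. The 7 neutrophil markers summed to 8.41 CPM, with 4 of them at 0. The 8 markers of plasmacytoid dendritic cells summed to 383 CPM in the members and 982 CPM in C1q-high cells. Müller glia markers, a list that includes Apoe, summed to 1341 CPM in the members and 15713 CPM in C1q-high cells. Endothelial markers stood at 21.0 CPM, with Cldn5 and Cdh5 at 0, and 4 of 5 pigment epithelium markers were at 0. The rule itself chose on the C1q genes, on several dendritic and type 1 markers and on Ccr7 of the mature list. It also limited 3 of the killer-cell markers. These sums thus describe the choice of cells as well as the cells, and single members carried genes of other cells.

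One member had 94 UMIs of B cell genes, among them 75 of Igkc, an immunoglobulin light chain, beside 18 UMIs of Xcr1 and 7 of Clec9a. Another member had 3.05% of its UMIs from 6 rod genes and 110 UMIs of Glul, a Müller glia gene, and scrublet marked it. A pair of members carried 75 and 62 UMIs of Trpm1, the channel of ON bipolar cells, and scrublet marked the second. Rod genes were otherwise low, with a median of 0.0432% of a member's UMIs, against 0.0816% in C1q-high cells. The B cell markers summed to 308 CPM in the members and 194 CPM in C1q-high cells. A further member held 47 of the members' 55 UMIs of Ly6c2, a monocyte marker. It had 25 Irf8 UMIs and class II genes at 1.11% of its UMIs. The part of these cells in the results was not tested, except where values without them are given.

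The genes given for this cell type were read first. Flt3, which encodes the receptor for a dendritic cell growth factor (mm10 chr5:147330741-147400489), had 99 UMIs in 47 of 91 members and stood at 83.3 CPM, against 9.22 CPM in C1q-high cells. Xcr1, the receptor for Xcl1 (chr9:123852315-123862029), stood at 91.7 CPM in members, from 12 cells, against 14.2 CPM. Clec9a, a lectin that binds dead cells (chr6:129408862-129424763), stood at 50.5 CPM from 11 cells, against 8.59 CPM. Most members thus had no UMI of Xcr1 or Clec9a. Itgae, which encodes the integrin CD103 (chr11:73090583-73147446), stood at 395 CPM from 72 members, against 44.5 CPM, and H2-Aa (chr17:34282744-34287823) at 8444 CPM against 1515 CPM. All 5 of these genes belong to the rule. Against the cleaner cells their ratios were 44.4 for Flt3, 33.1 for Xcr1, 20.2 for Clec9a, 58.2 for Itgae and 21.5 for H2-Aa.

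Il1b, which encodes the inflammatory cytokine interleukin-1 beta (chr2:129364570-129371139), was not used by the rule. It stood at 967 CPM in the members (912 to 1025) and 164 CPM in C1q-high cells (159 to 169.6), or 5.89-fold higher (5.51 to 6.30). In other C1q-low leukocyte cells it stood at 36.4 CPM and in rods at 1.66 CPM. The members were uneven. The lowest, median and highest member had 0, 658 and 3920.1 CPM, 25 members had no Il1b UMI and 42 had at least 10. Against the 1307 cleaner C1q-high cells, at 94.1 CPM, the ratio was 10.3.

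At least 2 times higher in the members than in C1q-high cells were 380 of 6680 genes tested, or 5.69%, and 734 genes, or 11.0%, were at least 2 times lower. The median log2 ratio over these genes was -0.17, and a gene entered with at least 20 CPM in either group and 20 summed UMIs. A gene that entered only through the group where it was high had to differ. This holds for the list counts below as well. Cd40, Irf4, Zbtb46, Il1r2, Il12b, Ccl17, Cxcl9 and Ccr9, among others, reached 20 CPM in the members alone. Outside the rule's genes, the 15 highest ratios included those of adhesion genes, class II loading genes, receptors and a transcription factor.

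Epcam, an adhesion molecule of epithelia that some dendritic cells also carry (chr17:87635979-87651129), led with 354 CPM in members against 21.3 CPM in C1q-high cells, 16.6-fold higher (14.5 to 19.0). It had a UMI in 72 of 91 members. Cdh1, or E-cadherin, stood at 175 CPM against 18.4 CPM, 9.48-fold higher (7.99 to 11.2), so both epithelial adhesion genes were high. Actn1, which cross-links actin, stood at 202 CPM against 23.6 CPM, 8.57-fold higher, and the level in rods was 41.6 CPM. Kit, the receptor for stem cell factor, stood at 123 CPM against 10.3 CPM, 11.96-fold higher (9.65 to 14.8), with UMIs in 58 members. Btla, an inhibitory receptor of lymphocytes and dendritic cells, stood at 101 CPM against 9.72 CPM, 10.4-fold higher. Most members thus held UMIs of these receptors and adhesion genes, and no single cell carried the sums.

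Kmo, which encodes kynurenine 3-monooxygenase of tryptophan breakdown, stood at 149.7 CPM in members against 10.7 CPM in C1q-high cells, 14.0-fold higher (11.5 to 17.1). Napsa, an aspartic protease, stood at 428 CPM against 49.1 CPM, 8.72-fold higher (7.83 to 9.70), in 81 members. Mgl2, a galactose-binding lectin of type 2 dendritic cells, stood at 161 CPM against 13.7 CPM, 11.8-fold higher (9.82 to 14.2), but in 32 members only. Ifitm1, an interferon-induced membrane protein, stood at 169 CPM against 10.4 CPM, 16.3-fold higher, and 1 cell held 26.4% of its UMIs among the members. Bcl11a, a transcription factor of dendritic and B cell lineages, stood at 103 CPM against 9.77 CPM, 10.6-fold higher. Hepacam2 was 8.60-fold and Gpr141, an orphan receptor, 8.16-fold higher. These 2 genes were at 0 in the rod cells.

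The ratios of these genes depended on which C1q-high cells were counted. Against the 1307 cleaner C1q-high cells, Epcam stood at 2.86 CPM there and the ratio was 124, Kit had a ratio of 98.1 and Kmo one of 79.7. Btla had a ratio of 45.2, Mgl2 of 39.3, Bcl11a of 32.1, Napsa of 29.6, Gpr141 of 29.3, Ifitm1 of 27.0, Hepacam2 of 25.7 and Cdh1 of 17.3. The lowest of the 15 against these cells was that of Actn1, at 15.0. All 15 genes were higher in the members against these cells too, by more than against all C1q-high cells.

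**Figure D1:**
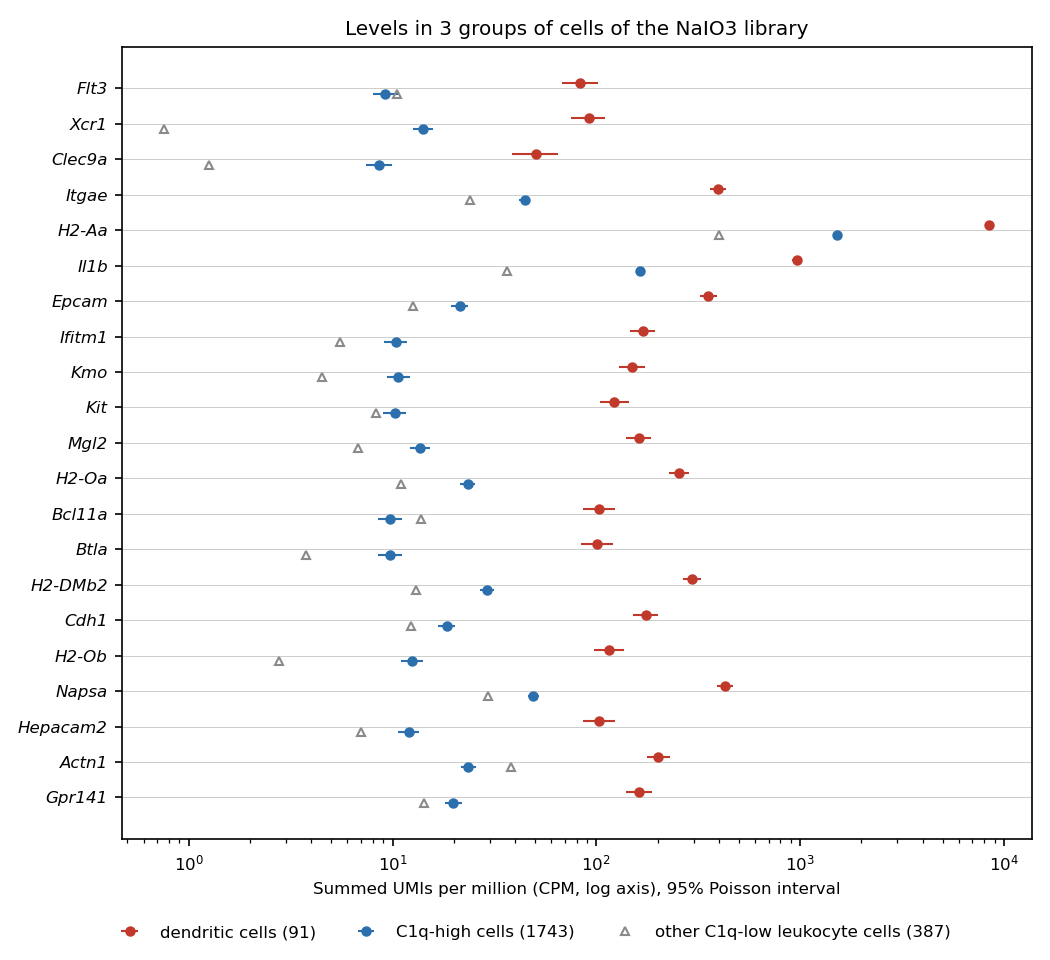
Summed level in CPM (log axis) of the 6 given genes and the 15 genes with the highest ratio in the 91 dendritic cells (red), the 1743 C1q-high cells (blue) and the 387 other C1q-low leukocyte cells (grey triangles), with 95% Poisson intervals for the first 2. Every red point lies to the right of its blue point, Epcam at 354 CPM against 21.3 CPM.

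The MHC class II list outside the rule's 3 genes had 7 of 8 measured genes at least 2 times higher and 1 lower, with a median log2 ratio of 2.58 beside -0.17 for all genes. Members were chosen by a high share of H2-Aa, H2-Ab1 and Cd74, so ratios of genes found with these are partly set by the choice. Ciita, the master activator of class II genes, stood at 309.5 CPM in members against 49.4 CPM in C1q-high cells, 6.26-fold higher (5.55 to 7.05). H2-Eb1, a class II beta chain, stood at 7771 CPM against 1363 CPM, 5.70-fold higher (5.57 to 5.84), and had UMIs in all 91 members. H2-Oa and H2-Ob, the chains of the H2-O regulator of peptide loading, were 10.9-fold and 9.30-fold higher. For H2-DM, which exchanges peptides on class II molecules, H2-DMb2 was 10.1-fold, H2-DMb1 3.22-fold and H2-DMa 2.53-fold higher. Counts of such close copies can be split or lost in counting, so the order among them is uncertain. Ctss, the protease that trims the invariant chain, was the exception, with 2008 CPM in members against 4245 CPM, 2.11-fold lower (2.03 to 2.20). Against the cleaner C1q-high cells the ratio was 24.2 for Ciita, 24.1 for H2-Eb1, 36.1 for H2-Oa, 22.8 for H2-Ob, 21.4 for H2-DMb2 and 5.73 for H2-DMb1.

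Promoter sequence is shown for the 6 class II genes of the list whose window in the sequence table held the motif searched. H2-Aa is a gene of the rule, and H2-DMa, 2.53-fold higher, had no match. H2-Ab1, Cd74, Ciita and Ctss had no window here and were not searched. The search was for TGATTGG, the core of the Y box that class II promoters are known for, on both strands of the window from 250 bases before to 50 bases after each start. Each line below is 77 bases 5′ to 3′ on the gene's strand from RefSeq (GRCm38.p6), with the match in capitals. H2-Aa lies at chr17:34287842-34287918 on the minus strand. The others are on the plus strand, H2-Eb1 at chr17:34305761-34305837, H2-DMb1 at chr17:34153083-34153159, H2-DMb2 at chr17:34145112-34145188, H2-Oa at chr17:34092289-34092365 and H2-Ob at chr17:34238801-34238877.
H2-Aa: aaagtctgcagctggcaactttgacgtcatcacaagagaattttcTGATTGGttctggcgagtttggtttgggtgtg
H2-Eb1: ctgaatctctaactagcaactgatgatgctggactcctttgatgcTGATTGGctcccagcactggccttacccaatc
H2-DMb1: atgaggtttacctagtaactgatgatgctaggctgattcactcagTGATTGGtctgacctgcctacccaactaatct
H2-DMb2: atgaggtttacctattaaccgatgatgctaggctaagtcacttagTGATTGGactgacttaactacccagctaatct
H2-Oa: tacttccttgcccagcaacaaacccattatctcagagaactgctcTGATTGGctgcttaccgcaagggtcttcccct
H2-Ob: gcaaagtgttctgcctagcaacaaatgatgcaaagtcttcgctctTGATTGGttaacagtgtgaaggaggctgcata
The match began 50 bases before the start in H2-Aa and 92 bases before it in H2-DMb2, and was on the gene's strand in all 6. Neither of the windows of H2-DMa held these letters. The same letters occur in 2568 of 32851 promoter windows, or 7.82%, so a match is a description of sequence and not of a bound site.

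MHC class I and cross-presentation genes stayed within 2-fold between the groups. Of 11 measured, 0 were 2 times higher and 0 lower, with a median log2 ratio of -0.11, which was 0.19 with per-cell means, 0.16 with thinned cells and 0.02 against the cleaner C1q-high cells. B2m, the light chain of class I molecules, stood at 2576 CPM in members and 3703 CPM in C1q-high cells. Tap1, a peptide transporter, stood at 116 CPM against 97.8 CPM. Psmb10, an immunoproteasome subunit, had the lowest ratio of the list, 0.525. The costimulation list had 1 of 8 genes higher and 0 lower. That gene was Cd40, the receptor through which T cells activate dendritic cells, with 24.4 CPM from 18 members against 8.64 CPM. It reached 20 CPM in the members alone, so it had to differ. Cd86, a ligand of CD28, stood at 99.2 CPM against 79.9 CPM, a ratio of 1.24 (1.02 to 1.497).

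Of 13 measured transcription factors of the dendritic lineage, 6 were at least 2 times higher and 1 lower, with a median log2 ratio of 0.72. Irf4, a factor of type 2 dendritic cells, stood at 69.8 CPM in members against 6.06 CPM in C1q-high cells, 11.5-fold higher (8.65 to 15.3), with UMIs in 42 members. Zbtb46, a factor that sets conventional dendritic cells apart from other myeloid cells, stood at 32.0 CPM from 38 UMIs, against 3.93 CPM, 8.12-fold higher (5.40 to 12.02). Id2, which favours the conventional over the plasmacytoid lineage, stood at 1220.4 CPM against 305 CPM, 4.01-fold higher (3.78 to 4.24), and Klf4 at 467 CPM against 157 CPM. Bcl6 was 2.52-fold higher. Irf8 (chr8:120736358-120756694), which both microglia and type 1 dendritic cells need, stood at 388 CPM in members and 429 CPM in C1q-high cells, a ratio of 0.904 (0.822 to 0.993). Zeb2 was 2.88-fold lower (2.45 to 3.41) in members. Against the cleaner C1q-high cells the ratio was 45.9 for Irf4, 19.9 for Zbtb46 and 7.69 for Id2, and that of Irf8 was 0.913.

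Cytokine genes differed both ways, with 4 of 9 higher and 3 lower. Among them, Il1r2 and Il12b reached 20 CPM in the members alone and Il1rn in C1q-high cells alone, so these had to differ. Beside Il1b, Il1r2, the decoy receptor for interleukin-1, stood at 30.3 CPM from 36 UMIs in 17 members against 3.07 CPM, 9.85-fold higher (6.39 to 15.0). Ebi3, a subunit of interleukin-27 and interleukin-35, was 2.16-fold higher. Il12b, the shared subunit of interleukin-12 and interleukin-23, rested on 3 members, with 86.2% of its UMIs from 1 cell. Tnf, at 30.3 CPM in members against 83.6 CPM, and Il1rn, the interleukin-1 receptor antagonist, at 5.89 CPM against 21.8 CPM, were lower. The inflammasome list, which holds genes that process interleukin-1 beta, had 0 of 10 genes higher and 2 lower. Nlrp3, its sensor, stood at 32.8 CPM in members and 40.2 CPM in C1q-high cells, a ratio of 0.817 (0.577 to 1.13). Casp1, which cleaves the precursor, stood at 42.1 CPM against 34.8 CPM. Il1b was thus high in the members while these 2 genes had intervals that include a ratio of 1. The cleaner C1q-high cells held 8 Il1r2 UMIs, against which the ratio of Il1r2 was 42.3, and that of Il12b was 18.2.

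Of 13 chemokines measured, 2 were higher and 7 lower, with a median log2 ratio of -1.82. Ccl17, a ligand of Ccr4, stood at 96.7 CPM in 28 members against 13.7 CPM in C1q-high cells, 7.08-fold higher (5.66 to 8.81). Cxcl9 was 3.64-fold higher, with 57.9% of its UMIs from 1 member. Ccl2, which attracts monocytes, stood at 29.4 CPM against 603 CPM, 20.5-fold lower (14.7 to 29.4). Ccl12 was 8.49-fold and Ccl7 10.5-fold lower. The cleaner C1q-high cells held 5 Ccl17 UMIs, against which the ratio of Ccl17 was 216 (90.1 to 679), and that of Cxcl9 was 6.50. Among 13 receptors 2 were higher and 3 lower. Csf2rb, the shared chain of the GM-CSF receptor, was 2.82-fold and Ccr9 2.76-fold higher. Csf1r, on which microglia depend, stood at 106 CPM against 726 CPM, 6.85-fold lower (5.75 to 8.23), and Cx3cr1 at 91.7 CPM against 974 CPM. Ccr2, a monocyte receptor, stood at 110.2 CPM in members and 112 CPM in C1q-high cells, a ratio of 0.986. Against the cleaner C1q-high cells the ratio was 1.503 for Ccr2 and 4.15 for Ccr9.

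The S100 and annexin list had 6 of 10 genes higher and 1 lower, with a median log2 ratio of 1.51. S100a6, a calcium-binding protein, stood at 960.5 CPM in members against 170.1 CPM in C1q-high cells, 5.65-fold higher (5.28 to 6.03), and S100a4 was 5.41-fold higher. Lgals1, a galectin, was the lower one, at 159.8 CPM against 772 CPM. In the migration list 5 of 15 genes were higher and 2 lower. Itgb7, the integrin chain that pairs with Itgae, stood at 124 CPM against 21.1 CPM, 5.91-fold higher (4.88 to 7.12). Itgal was 14.4-fold lower. NF-kB targets had 3 of 12 higher and 0 lower, led by Traf1 at 66.4 CPM against 16.1 CPM. Ifi205 was the 1 interferon gene of 16 that was higher, 8.08-fold, and 4 were lower, Ifi27l2a among them. Against the cleaner C1q-high cells the ratio was 23.1 for S100a6, 24.5 for S100a4, 30.9 for Itgb7, 15.5 for Traf1 and 17.4 for Ifi205.

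Genes of lipid handling, lysosomes and microglia were lower in the members. The comparison cells were chosen by C1q, which microglia make, so lower microglia genes here and among the lowest ratios partly restate that choice. In the lipid list 10 of 13 genes were lower and 0 higher, with a median log2 ratio of -2.84. Apoe, which carries cholesterol out of cells, stood at 1101 CPM in members against 15440.2 CPM in C1q-high cells, 14.0-fold lower (13.3 to 14.8), and Trem2, a lipid receptor of microglia, at 23.5 CPM against 449 CPM. Cd36, a scavenger receptor, stood at 30.3 CPM against 116 CPM, 3.82-fold lower. Soat1, which esterifies cholesterol, stood at 199 CPM against 183 CPM, a ratio of 1.09. In the phagocytosis and lysosome list 15 of 18 genes were lower, among them Ctsd, a lysosomal protease, at 149 CPM against 2031 CPM. Cst3, an inhibitor of cathepsins and a known dendritic cell gene, was the 1 higher, with 9096 CPM in members against 3605 CPM, and rods stood at 2688 CPM.

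Among the 10 lowest ratios were genes of microglia and macrophages and 1 granzyme. Gpnmb stood at 10.1 CPM in members against 455 CPM in C1q-high cells, 45.1-fold lower (25.8 to 87.3). Spp1, or osteopontin, stood at 47.1 CPM against 2008 CPM, 42.6-fold lower (32.8 to 56.4). Fn1, Pf4, Maf, Olfml3 and Fcrls were between 22.1-fold and 27.1-fold lower. Gzmc, a granzyme of killer cells, had no UMI in the members and stood at 129 CPM in C1q-high cells, at least 51.2-fold lower with 3 counts set for 0. The 1307 cleaner C1q-high cells held 1 Gzmc UMI, so both groups were under 3 counts there and no fold is given. The disease-associated microglia list had 7 of 12 genes lower and 1 higher, the homeostatic microglia list 10 of 12 lower. The higher one was Itgax, which encodes CD11c, at 391 CPM against 191 CPM. Complement genes other than C1q had 5 of 8 lower, and Cfp, or properdin, was higher at 309.5 CPM against 80.5 CPM. Itgam, the target of the beads, stood at 47.1 CPM in members and 173 CPM in C1q-high cells. Proliferation genes were lower in 13 of 17, with Mki67 at 140.5 CPM against 321 CPM. Among lectins and pattern receptors 4 of 8 were lower, Tlr7 and Tlr2 among them, and Clec10a was 5.29-fold higher. Against the cleaner C1q-high cells Spp1 was 67.0-fold lower and Clec10a 9.78-fold higher.

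**Figure D2:**
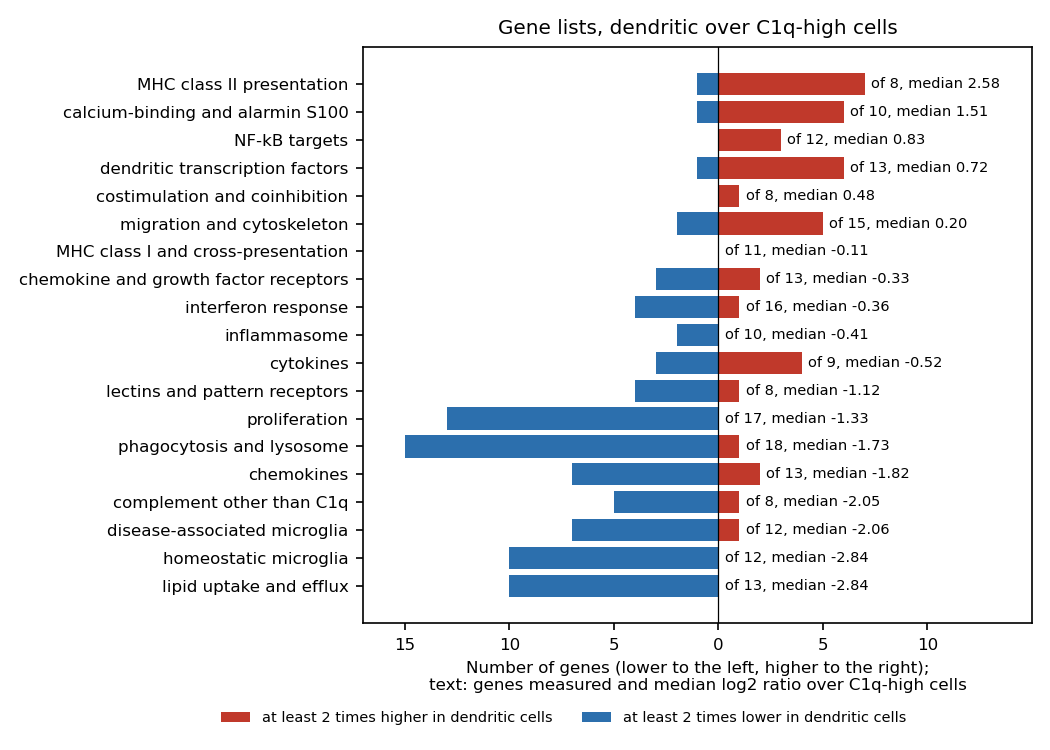
Number of genes of each of the 19 lists at least 2 times higher (red, to the right) or lower (blue, to the left) in dendritic than in C1q-high cells, with the number measured and the median log2 ratio. Class II genes were higher in 7 of 8 and lipid genes lower in 10 of 13. The rule chose the members by high class II and low C1q shares.

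Against the 387 other C1q-low leukocyte cells, 804 of 8053 genes tested were at least 2 times higher in the members, or 9.98%, and 2595 were lower, or 32.2%, with a median log2 ratio of -0.54. Those cells carried more retinal RNA, with 0.778% of UMIs from the 6 rod genes in the median cell against 0.0432% in the members. Its part in the lower genes and in the higher ones was not tested. Class II genes were higher in 8 of 8, with a median log2 ratio of 4.30. The share of H2-Aa, H2-Ab1 and Cd74 set the members apart from these leukocytes, so this count is partly set by that choice. Ctss, lower than in C1q-high cells, stood at 2008 CPM in members against 576 CPM in these leukocytes. Transcription factors were higher in 8 of 13 and NF-kB targets in 9 of 12. Costimulation genes, of which 1 was 2 times higher than in C1q-high cells, were higher here in 6 of 8, and Cd86 stood at 99.2 CPM against 13.8 CPM. 

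The members differ in depth from the other cells, so shares of cells with a UMI were compared after thinning each cell to 1000 UMIs. This used 87 members, 1387 C1q-high cells and, as the background of free RNA, 547 rod cells, and left out 4, 356 and 164 shallower cells. An Il1b UMI was then found in 50.6% (39.6 to 61.5) of members, 6.99% (5.71 to 8.47) of C1q-high cells and 0% of rods, and before thinning in 72.5% of members and 18.5% of C1q-high cells. Epcam was found in 34.5% (24.6 to 45.4) of members, 0.865% (0.448 to 1.51) of C1q-high cells and 0% of rods. For S100a6 the shares were 51.7% (40.8 to 62.6) of members, 7.35% (6.04 to 8.86) of C1q-high cells and 1.46% (0.633 to 2.86) of rods. These genes were thus more often seen in members at equal depth, and far above the rods. Irf8 was found in 19.5% (11.8 to 29.4) of members and 26.7% (24.4 to 29.1) of C1q-high cells, with overlapping intervals. At 2000 UMIs, with 85 members and 999 C1q-high cells left, Irf8 was found in 31.8% (22.1 to 42.8) of members and 50.5% (47.3 to 53.6) of C1q-high cells, and the intervals did not overlap. Apoe was found in 33.3% (23.6 to 44.3) of members, 96.9% (95.8 to 97.7) of C1q-high cells and 12.8% (10.1 to 15.9) of rods. Apoe was thus less often seen in members than in C1q-high cells, and more often than in rods. For the genes with 0 of 547 rods, the exact binomial interval reaches up to 0.672%.

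**Figure D3:**
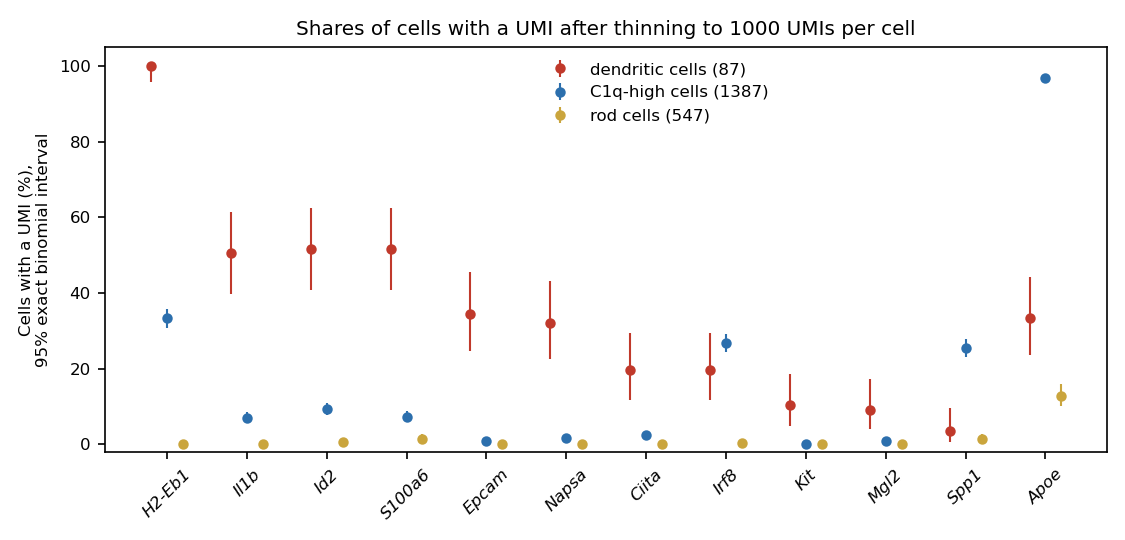
Percent of cells with at least 1 UMI of each gene after thinning every cell to 1000 UMIs, in dendritic cells (red, 87), C1q-high cells (blue, 1387) and rod cells (yellow, 547), with 95% exact binomial intervals. Il1b reached 50.6% of members against 6.99% of C1q-high cells, while Apoe ran the other way.

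The 91 members were split by markers in a fixed order. First came 10 cells with at least 2 UMIs of Ccr7, Ccl22, Fscn1 and Cacnb3, or 11.0% (5.40 to 19.3). Next came 14 cells with an Xcr1 or Clec9a UMI, or 15.4% (8.67 to 24.5), and then 38 cells with a Mgl2, Clec10a or Cd209a UMI, or 41.8% (31.5 to 52.6). The other 29 cells, or 31.9% (22.5 to 42.5), had none of these. Cd209a was found in 5 members, Clec10a in 20 and Mgl2 in 32, so the third set is called the Mgl2 group. Cells were placed by detected UMIs, and a UMI can be missed at these depths. Median depths were alike, from 11533 UMIs in the remaining members to 14637 in the Xcr1/Clec9a group.

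In the Xcr1/Clec9a group, Irf8, the factor that type 1 dendritic cells need, stood at 1734 CPM, against 104 CPM in the other members, 16.7-fold higher (13.4 to 21.0). It had UMIs in 13 of the 14 cells, whose lowest, median and highest level were 0, 2295 and 3455 CPM, while the median of the 38 Mgl2 cells was 0. Tlr3, the sensor of double-stranded RNA, stood at 266 CPM in 11 of the 14 cells, against 27.5 CPM in the other members, 9.66-fold higher. Klf2 stood at 464 CPM in 10 cells against 39.7 CPM, and Rtl8a at 227 CPM in 11 cells against 20.4 CPM. These 4 genes thus came from many cells of the set. Rsad2, an interferon-induced enzyme, was also high, but 93.8% of its UMIs came from 1 cell, and all Igkc UMIs came from the member with B cell genes. Cst3 had a median of 17486 CPM per cell in this set and 7335 CPM in the Mgl2 group. Epcam had UMIs in 5 of these 14 cells, against 32 of 38 in the Mgl2 group.

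In the Mgl2 group, Il1b stood at 1577 CPM, against 569.7 CPM in the other members, 2.77-fold higher (2.45 to 3.13), with UMIs in 33 of 38 cells. The lowest, median and highest of these cells had 0, 1621 and 3920.1 CPM. In the Xcr1/Clec9a group the same 3 values were 0, 12.7 and 740.2 CPM, so the sets overlapped at the low end but the highest Xcr1/Clec9a cell was below the median Mgl2 cell. Kmo stood at 259.9 CPM in 32 cells against 77.8 CPM in the other members, 3.34-fold higher. Klrd1, which encodes CD94, stood at 371 CPM in 34 cells against 143 CPM, and Nfkbiz at 241 CPM against 88.9 CPM. Ifitm1 stood at 288 CPM against 91.7 CPM, with 39.3% of the group's UMIs from 1 cell.

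**Figure D4:**
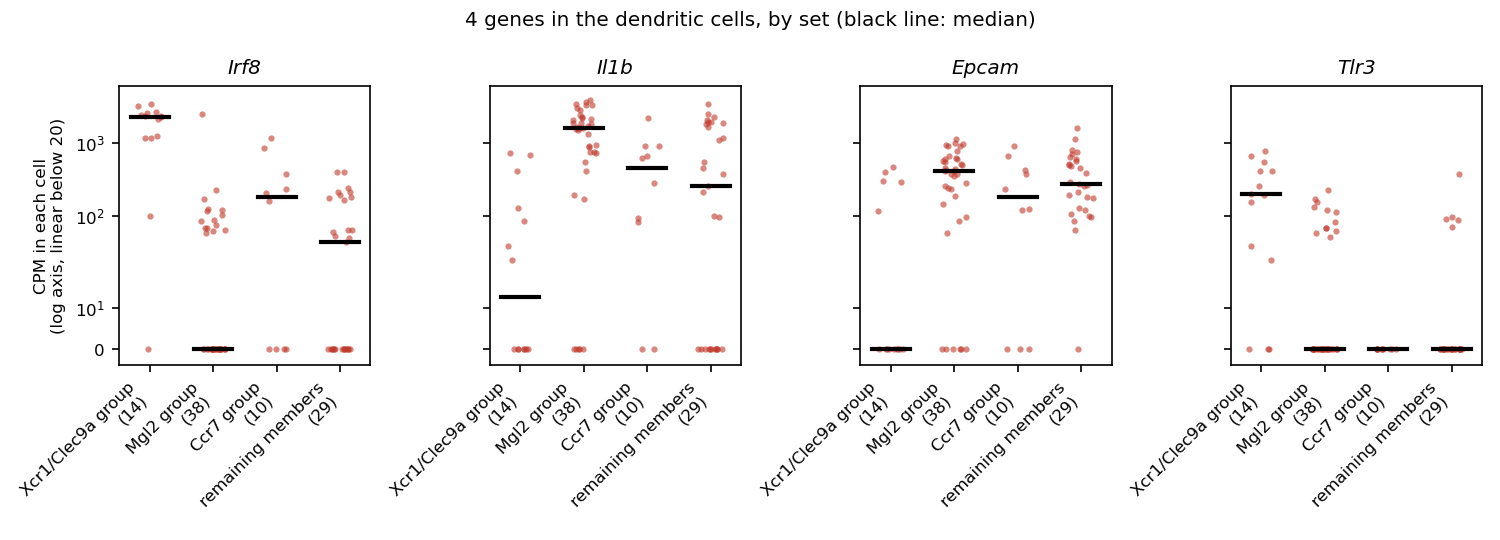
Level in CPM (log axis, linear below 20) of Irf8, Il1b, Epcam and Tlr3 in each of the 91 dendritic cells, by set, with the median as a black line. Irf8 and Tlr3 are high in the Xcr1/Clec9a group, where the median Il1b level is 12.7 CPM against 1621 CPM in the Mgl2 group.

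High Irf8 and high Il1b were not found in the same members. Of 10 members with at least 10 Irf8 UMIs, 0 had 10 or more Il1b UMIs, 6 had none and the highest had 6. Of these 10 cells 9 were the members with at least 3 UMIs of Xcr1 and Clec9a together. The tenth lay in the Mgl2 group and was the member with 47 UMIs of the monocyte marker Ly6c2. Among the 42 members with at least 10 Il1b UMIs, 39 had an Epcam UMI, while 3 of the 9 with at least 3 Xcr1 and Clec9a UMIs did. Of all 91 members, 72 had an Epcam UMI, and a cut at 10 UMIs favours deeper cells. Cells are not replicates, so these counts describe 1 library of pooled mice.

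**Figure D5:**
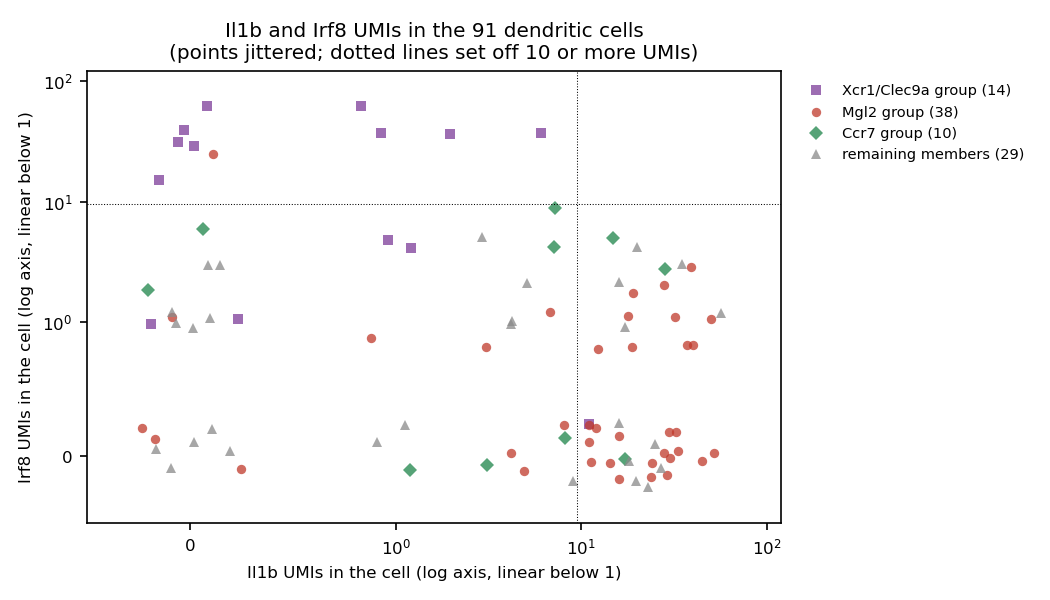
UMIs of Il1b (horizontal) and of Irf8 (vertical) in each of the 91 dendritic cells, on log axes that are linear below 1, with marks by set and small random shifts so that equal points can be seen. The upper right field, with at least 10 UMIs of both genes, holds 0 cells, and 10 cells have at least 10 Irf8 UMIs.

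The Ccr7 group rested on few cells. Only 5 of its 10 cells had a Ccr7 UMI, and the others were placed by Ccl22, Fscn1 and Cacnb3. Of the 5 cells with Ccr7, 2 had 10 or more, with 15 and 17 UMIs. Il4i1, an enzyme of mature dendritic cells, had 39 UMIs in 4 of the 10 cells and 0 in the other members, at least 80.3-fold higher with 3 counts set for 0 over the group. Ccl5 stood at 1781 CPM against 74.3 CPM in the other members, but 71.2% of its UMIs came from 1 of 4 cells, and 76.6% of the Ccl12 UMIs from 1 of 3. Clu, Cp and Glul, genes of Müller glia, were high through the rod-rich member, which held 96.6%, 100% and 96.5% of their UMIs. At 3 UMIs instead of 2, the group had 5 cells. In the remaining members, Trpm1, Pcp2, Gng13 and Pcp4, genes of bipolar cells, came from 2 cells each. Rgs1, a regulator of G protein signalling, stood at 703 CPM in 11 of these 29 cells against 209 CPM in the other members, and Lyz2, or lysozyme, at 510.2 CPM in 16 cells against 184 CPM.

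Summed over all kept cells, the genes of these cells were found mainly in the NaIO3 library. Flt3 had 369 UMIs there, or 4.89 CPM, and 0 in the PBS library, where 3 counts are worth 0.129 CPM. Xcr1 stood at 6.07 CPM in NaIO3 and had 2 UMIs in PBS. Il1b stood at 69.4 CPM in NaIO3 against 0.129 CPM in PBS, and Itgae at 24.2 CPM against 3.54 CPM. C1q-high cells were also few in PBS, 15 against 1743 in the NaIO3 library. The members held 26.8% of the library's Flt3 UMIs, 23.8% of its Xcr1, 37.4% of its Epcam and 22.0% of its Il1b. C1q-high cells held 68.3% of the Xcr1 and 69.4% of the Il1b UMIs, so most transcripts of these genes lay outside the members. The 1307 cleaner C1q-high cells held only 31 of the library's 458 Xcr1 UMIs and 1053 of its 5233 Il1b UMIs. More such cells and more RNA per cell cannot be told apart from these sums.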

How the data were processed

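Single-cell RNA was measured in 1 NaIO3 and 1 PBS library, grouped by the treatment label. The authors deposited whole-number UMI counts, not normalized, of 31053 genes for barcodes that passed the Cell Ranger filter (version 3.0.2 per the file headers). The submitters' processing notes name mm10, and no source used here gives the annotation release. The NaIO3 library had 9746 barcodes and 75981079 UMIs, of which 9441 cells were kept, and the PBS library had 6242 barcodes and 26605477 UMIs, of which 5573 were kept. That depth gave 1188975 UMIs in the members and 22116453 in C1q-high cells.

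For each group of cells, counts were added up and divided by the group's total, giving CPM, with exact Poisson intervals. Ratios have exact conditional binomial (Clopper-Pearson) intervals and shares exact binomial intervals, at 95%. A count of 0 was set at 3 counts over the group. The calculation was tested on simulated data. Doublets were called in the kept NaIO3 cells with scrublet at an expected 6% and kept. Python 3.11.15, numpy 2.4.6, scipy 1.17.1, pandas 2.3.3 and scanpy 1.11.5 were used, and edgeR 4.0.16 under R 4.3.3 for TMM scaling. Rod cells were kept cells with 6 rod genes at 5% of UMIs or more and C1q and class II below their limits.

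The members, the 19 gene lists and the tests were chosen with earlier results of these data known. Named genes were the 6 given ones, the 15 highest and 10 lowest ratios over C1q-high cells among genes reaching 100 CPM in a group and 50 summed UMIs, up to 5 highest and 3 lowest of each list, and 6 per set with at least 200 CPM and 20 UMIs. The ranking left out the rule's genes, genes higher in rods, unnamed models, and mitochondrial, ribosomal and sex-linked genes. Some genes that met the rule are not named, and a few list members and markers outside it (among them Bcl6, Cd36, Ccr2, Mki67, Itgam and Mrc1) were picked after their values were seen. Of the list entries 3 were not analysed here. Alternatives changed the cell filter, the rule's limits, the scaling, the depth, the filter on low values, the comparison cells and the set rules.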

Additional observations from a re-analysis of the deposited data

How the results depend on the processing

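Each of the 31 named genes kept its direction under every alternative that gave a value, and none reversed, but with thinned cells Gzmc fell under 2-fold, at a log2 ratio of -0.06 against -5.68. At 0.1% C1q the number of members was 72 against 91. Genes at least 2 times higher numbered 674 with per-cell CPM averaged, 736 with cells thinned to 1000 UMIs and 3863 with no filter on low values, against 380; without that filter 1765 genes were lower, against 734. The counts without the filter take in genes that it leaves out. The cause of the other changes was not tested. Per-cell means moved the log2 ratios of the named genes by a median of 1.07, thinning by 1.43 and the cleaner C1q-high cells by 1.44. Against the cleaner cells the higher of these genes had larger ratios and the lower ones smaller ratios, except Gzmc, which could not be compared. TMM and median-of-ratios scaling shifted all genes by 0.07 and 0.08. Of the 19 list medians 16, 17 and 18 kept their sign with per-cell means, thinned cells and no filter, and 18 with the cleaner C1q-high cells. Alternatives chosen after seeing the data were those cleaner cells and the members without the rod-rich and the B cell-gene cell, which gave 89 members and 363 higher genes. No paired analysis was possible because each group is 1 library. With 91 cells, sets of 10 and 14 cells give wide intervals, and a gene missing from a cell may be unseen at its depth.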
